A study of Mus musculus with 12 samples.

Results

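The genes described are 10 of the 17432 in the deposited table, taken by symbol: the bile acid synthesis enzymes Cyp7a1, Cyp8b1, Cyp27a1 and Cyp7b1, the conjugation enzymes Slc27a5 and Baat, the transporters Slc10a1 and Abcb11, and the nuclear receptors Nr1h4 (FXR) and Nr0b2 (SHP). All 10 passed the filter on low counts that left 12344 genes for testing. RNA-Seq was done on whole liver of wild-type C57BL/6J male mice, 8 to 10 weeks old, with 6 Sedentary and 6 Exercise livers and 1 liver per mouse. Both groups were fed by day and fasted by night for 3 days and were acclimated to the treadmill, and on day 4 were refed and then kept without food. Exercise mice ran at 14 m/min for 3 hours, Sedentary mice did not run, and all livers were taken at the end of that time, so the comparison asks what a single postprandial run did to liver transcripts. No transgene or knockout was carried by either group, and no exercise outside the fed state and no later time point is in the comparison.

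Bile acids are made from cholesterol in hepatocytes. The classical route starts with Cyp7a1, the rate-limiting enzyme, and the alternative route with Cyp27a1 and Cyp7b1, while Cyp8b1 adds the hydroxyl group that makes cholic acid. The acids are joined to taurine or glycine, pumped into bile through Abcb11, and taken up again from portal blood through Slc10a1. FXR is the receptor that binds bile acids, and in the textbook loop it raises Nr0b2, whose product SHP holds back Cyp7a1 and Cyp8b1 by acting on LRH-1 (Nr5a2) and HNF4A at their promoters.

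After exercise, the receptor transcript Nr1h4 fell by 39.6% and the uptake transporter Slc10a1 fell by 18.6%, and Cyp27a1 rose 1.24-fold. These 3 calls held in every other fit that was made. Slc27a5 also rose and Cyp7b1 fell, each only slightly past the threshold of an adjusted p of 0.05, and both calls were lost in most fits that left out 1 liver. Cyp7a1, Cyp8b1, Baat, Abcb11 and Nr0b2 did not pass the threshold. In all, 5 of the 10 genes changed (50%, 2 higher and 3 lower), where 42.4% of all genes tested changed, 21.1% higher and 21.3% lower. The median log2 fold change of the 10 genes was -0.19, and that of all genes tested was -0.0028. Only Nr1h4 separated the groups with no overlap, 1 gene of 10, where 22.3% of all genes tested did so. The share of the 10 genes that changed is near the background, so the counts say nothing particular about these genes.

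**Figure D1:**
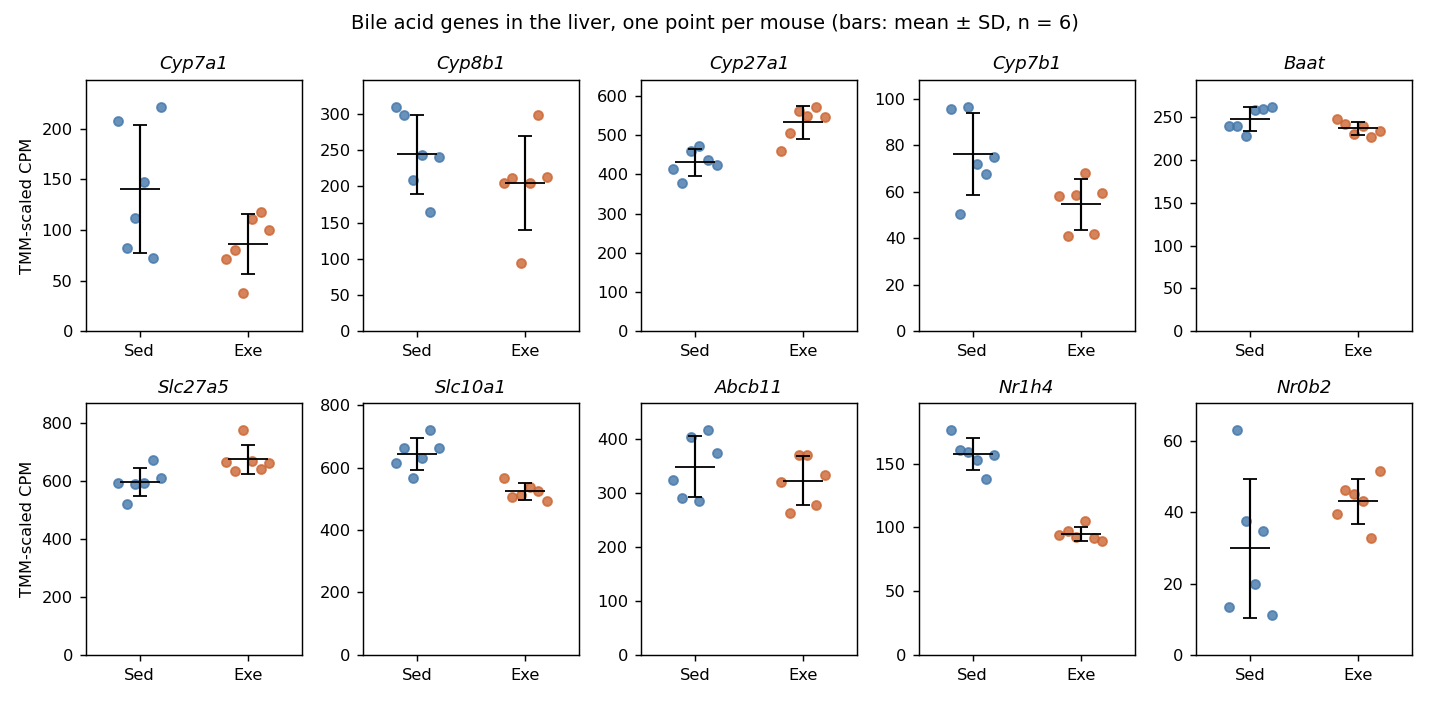
Each panel plots 1 gene, with its TMM-scaled CPM (counts scaled to library size) on the y axis and 1 point per liver for 6 Sedentary (Sed) and 6 Exercise (Exe) mice, and bars give the mean ± SD. Nr1h4 is the one gene whose groups do not overlap (138 to 176 against 89.5 to 105), and Nr0b2 ranges from 11.2 to 62.9 in Sedentary livers but only from 32.8 to 51.5 in Exercise livers.

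Library totals were 18745379 to 19324461 counts, so counting error was small for each of these genes, at most 4.1% of the level (Nr0b2 in Sedentary livers). Exercise replicate 3 was most often the liver far from the other 5 of its group, in 267 of 11537 genes (2.31%), where the other 11 livers had 0.303% to 1.13%. In Exercise replicate 1 the heart myosin gene Myh6 had 106 counts, within the 85 to 212 of the Sedentary livers, while the other 5 Exercise livers had 0. The fold changes of the 10 genes and the counts of each list were therefore also computed without these 2 livers. Hepatocyte markers were abundant in all 12 livers, with summed levels of 120000 to 160000 CPM in Sedentary and 148000 to 171000 CPM in Exercise livers. Of those 9 markers, Alb, F2 and Tat were called higher and the other 6 did not pass the threshold.

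Nr1h4 (gene ID 20186) encodes FXR, the bile acid receptor, and lies on chromosome 10 of GRCm38 from 89454234 to 89533585 on the minus strand. It was at 138 CPM at the lowest, 158 at the median and 176 at the highest in Sedentary livers. The corresponding levels in Exercise livers were 89.5, 93.4 and 105 CPM. Each Exercise liver was thus below each Sedentary liver, and the spread within either group was small, with means of 157 ± 12.3 and 95.0 ± 5.48 CPM (SD, n = 6 each). Its log2 fold change, exercise over sedentary, was -0.73 (SE 0.061), with an adjusted p = 1.03e-07 in edgeR (quasi-likelihood, Benjamini-Hochberg over all genes tested). The two-sided exact permutation test over the 12 livers gave p = 0.00216, the smallest p that its 924 relabellings can give. It was -0.71 without Exercise replicates 1 and 3. In bulk liver, fewer cells that express a gene and less of its RNA per cell cannot be told apart.

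Nr0b2 (gene ID 23957) encodes SHP, the repressor that FXR is known to induce, and lies on chromosome 4 from 133553376 to 133556536 on the plus strand. The stretch before its start is printed here because SHP and LRH-1 are known to meet at such sites, and the capitals mark the LRH-1 core (TCAAGG or CCAAGG, searched on both strands). The 250 bases are chr4:133553126-133553375 on the plus strand of GRCm38.p6, from RefSeq, and 2 matches lie 68 and 35 bases before the start.
Nr0b2 promoter: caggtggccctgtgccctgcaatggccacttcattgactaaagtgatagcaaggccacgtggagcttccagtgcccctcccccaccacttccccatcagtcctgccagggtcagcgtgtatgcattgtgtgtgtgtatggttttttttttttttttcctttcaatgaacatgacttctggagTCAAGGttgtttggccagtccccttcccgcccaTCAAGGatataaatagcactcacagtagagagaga
Of 32851 promoters of the same length, 28.3% hold this short core, so a match is a description and not a site of binding.

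In Sedentary livers Nr0b2 was at 11.2 CPM at the lowest, 27.3 at the median and 62.9 at the highest, a 5.6-fold range between mice. Exercise livers lay between 32.8 and 51.5 CPM with a median of 44.1, a 1.57-fold range. All 6 Exercise livers lay inside the Sedentary range and above the Sedentary median. The coefficient of variation was 64.9% in Sedentary and 14.8% in Exercise livers, beside counting errors of 4.1% and 3.57%, and the difference in spread was not tested. The mean was 29.9 ± 19.4 CPM in Sedentary and 43.1 ± 6.38 CPM in Exercise livers (SD, n = 6 each), a log2 fold change of 0.52 (SE 0.39) that did not pass the threshold (edgeR adjusted p = 0.31). The exact permutation test, two-sided, gave p = 0.102 for a difference of mean log2(CPM + 0.5) of 0.753. With limma-voom the log2 fold change was 0.769 (adjusted p = 0.138), so the size of the estimate depended on the method. Without Sedentary replicate 2, the liver with the most Nr0b2, the log2 fold change was 0.89 (edgeR adjusted p = 0.0524), still short of the threshold.

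**Figure D2:**
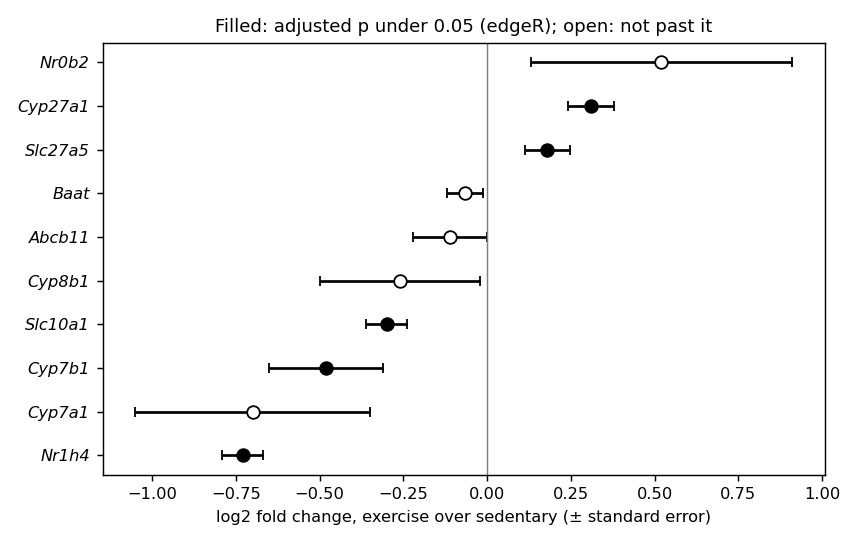
The x axis is the log2 fold change of exercise over sedentary from edgeR, with 1 row per gene, bars of 1 standard error, and filled points for an adjusted p under 0.05. Nr1h4 (-0.73) and Cyp7a1 (-0.70) had nearly the same estimate, but the standard error of Cyp7a1 was 0.35 where that of Nr1h4 was 0.061.

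Among the enzymes of the classical route, Cyp7a1 (gene ID 13122; chromosome 4, 6265612 to 6275633, minus strand) makes the first and rate-limiting step. It was at 72.5 CPM at the lowest, 130 at the median and 222 at the highest in Sedentary livers. In Exercise livers the lowest was 38.2, the median 89.7 and the highest 118 CPM. All 6 Exercise livers were below the Sedentary median and 2 were below the lowest Sedentary liver, but the groups overlapped widely. Means were 141 ± 63.2 and 86.4 ± 29.6 CPM (SD, n = 6 each). The log2 fold change of -0.70 (SE 0.35) was nearly as large as that of Nr1h4 and did not pass the threshold (edgeR adjusted p = 0.135). A two-sided exact permutation test gave p = 0.104. Without Exercise replicates 1 and 3, of which replicate 3 was the lowest Exercise liver, it was -0.46, a fold nearer 1.

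Cyp8b1 (gene ID 13124), the enzyme that sets the share of cholic acid, is a gene of 1 annotated transcript on chromosome 9 from 121914356 to 121916305 on the minus strand. Its promoter, chr9:121916306-121916555 on the minus strand of GRCm38.p6 from RefSeq, is shown because it holds the other form of the LRH-1 core, CCAAGG in capitals, 61 bases before the start.
Cyp8b1 promoter: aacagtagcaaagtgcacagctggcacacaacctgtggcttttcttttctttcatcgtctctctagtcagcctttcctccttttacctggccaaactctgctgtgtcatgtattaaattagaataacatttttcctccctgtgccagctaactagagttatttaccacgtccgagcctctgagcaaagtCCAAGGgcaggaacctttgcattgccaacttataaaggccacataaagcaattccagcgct
Its level ran from 165 to 310 CPM in Sedentary livers, with a median of 242, and from 94.4 to 298 CPM in Exercise livers, with a median of 208. Most Exercise livers sat among the Sedentary ones, and the single Exercise liver below them was replicate 3. The log2 fold change was -0.26 (SE 0.24, edgeR adjusted p = 0.434) with all livers. It was -0.11 without Exercise replicate 3 and -0.072 without Exercise replicates 1 and 3, so the estimate rests largely on that liver.

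Of the alternative route, Cyp27a1 was called higher and Cyp7b1 lower, the latter only slightly past the threshold. Cyp27a1 (gene ID 104086; chromosome 1, 74713574 to 74737892, plus strand), the mitochondrial enzyme that hydroxylates the sterol side chain, rose. It was at 377, 430 and 472 CPM at the lowest, median and highest in Sedentary livers, and at 460, 547 and 573 CPM in Exercise livers. In 5 of the 6 Exercise livers the level was above the highest Sedentary liver, and Exercise replicate 1 was the exception. The log2 fold change was 0.31 (SE 0.068, edgeR adjusted p = 0.00137), with p = 0.00433 from the two-sided exact permutation test. Across fits that left out 1 liver it was 0.27 to 0.35, each past the threshold.

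Cyp7b1 (gene ID 13123; chromosome 3, 18071950 to 18243338, minus strand), the next enzyme of that route, acts on the oxysterols that Cyp27a1 makes. Sedentary livers had 50.5 CPM at the lowest, 73.4 at the median and 96.7 at the highest. Exercise livers had 40.8, 58.4 and 68.3 CPM. All 6 Exercise livers were below the Sedentary median, but only 2 were below the lowest Sedentary liver. Its log2 fold change was -0.48 (SE 0.17, edgeR adjusted p = 0.0439), with p = 0.0368 from the two-sided exact permutation test. The call was lost in 10 of the 12 fits that left out 1 liver, with adjusted p from 0.0105 to 0.0942 in edgeR, and was kept only without Sedentary replicate 2 or Exercise replicate 4. Without Exercise replicates 1 and 3 it was -0.53 (edgeR adjusted p = 0.0914). The small RNA gene Gm23686 lies inside Cyp7b1 on the same strand.

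Conjugation needs Slc27a5, which activates bile acids with coenzyme A, and Baat, which then joins them to taurine or glycine. Slc27a5 (gene ID 26459; chromosome 7, 12988346 to 12998192, minus strand) was at 521 to 672 CPM in Sedentary livers, median 594, and at 635 to 775 CPM in Exercise livers, median 664. All 6 Exercise livers lay above the Sedentary median, and 1 of them, replicate 3 at 775 CPM, above the highest Sedentary liver. It rose 1.13-fold, a log2 fold change of 0.18 (SE 0.067, edgeR adjusted p = 0.0392). The two-sided exact permutation test gave p = 0.0152. The call was lost in 7 of the 12 fits that left out 1 liver and with scaling by library size alone (0.083, edgeR adjusted p = 0.24), and without Exercise replicates 1 and 3 the value was 0.13 (edgeR adjusted p = 0.149).

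Baat (gene ID 12012; chromosome 4, 49489422 to 49506557, minus strand) was the steadiest of the 10 genes, with 228 to 262 CPM in Sedentary and 227 to 248 CPM in Exercise livers. Its log2 fold change was -0.066 (SE 0.053, edgeR adjusted p = 0.337). With scaling by library size alone it was -0.16 and passed the threshold (edgeR adjusted p = 0.0304), so a small difference in Baat depends on the scaling. The direction of both conjugation genes did not depend on it.

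Slc10a1 (gene ID 20493; chromosome 12, 80953183 to 80968705, minus strand) encodes NTCP, the sodium-driven carrier that takes conjugated bile acids up from portal blood. It was at 566 CPM at the lowest, 647 at the median and 719 at the highest in Sedentary livers. The same values in Exercise livers were 493, 518 and 568 CPM. Only Exercise replicate 1, at 568 CPM, reached into the Sedentary range, and the other 5 Exercise livers were below every Sedentary liver. It fell by 0.30 on the log2 scale (SE 0.062, edgeR adjusted p = 0.000907), from 643 ± 51.7 to 524 ± 26.8 CPM (SD, n = 6 each). The exact permutation test, two-sided, gave p = 0.00433, and without Exercise replicates 1 and 3 the value was -0.32.

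Abcb11 (gene ID 27413; chromosome 2, 69238282 to 69342616, minus strand) encodes BSEP, the bile salt export pump of the canalicular membrane and a textbook FXR target. Its promoter, chr2:69342617-69342866 on the minus strand of GRCm38.p6 from RefSeq, is shown because the capitals mark the arrangement that FXR with its partner RXR is known to bind, AGGTCA and TGACCT facing each other with 1 base between (IR1), here with 1 mismatch and 63 bases before the start.
Abcb11 promoter: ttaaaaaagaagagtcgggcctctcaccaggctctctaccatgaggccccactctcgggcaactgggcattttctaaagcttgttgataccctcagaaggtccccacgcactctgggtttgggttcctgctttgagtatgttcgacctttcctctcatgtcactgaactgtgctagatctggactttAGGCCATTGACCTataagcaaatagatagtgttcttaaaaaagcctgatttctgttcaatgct
Among the 32851 promoters of this length, 26 (0.0791%) hold that arrangement with at most 1 mismatch on either strand. The level of Abcb11 was 285, 349 and 416 CPM at the lowest, median and highest in Sedentary livers, and 263, 327 and 370 CPM in Exercise livers. The ranges covered each other for the most part, and the log2 fold change of -0.11 (SE 0.11) did not pass the threshold (edgeR adjusted p = 0.436). The genes Gm13613 and Gm13614 overlap Abcb11 on the other strand, and the strand setting of the counting is not given in the sources used here, so their reads cannot be told apart from its own.

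RefSeq promoters were matched for 6 of the 10 genes (Abcb11, Cyp27a1, Cyp8b1, Nr0b2, Nr1h4 and Slc10a1), with 7 promoters in all. Besides the matches above, 1 of the 2 promoters of Slc10a1 held the LRH-1 core on the opposite strand, CCTTGG, 162 bases before the start. No match was found in those windows for a direct repeat of AGGTCA with 1 base between and at most 1 mismatch (held by 0.484% of all promoters) or for the D-box TTATGTAA (0.819%).

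Levels were compared between genes only per transcript length, as FPKM (fragments scaled to transcript length and depth). In Sedentary livers Slc10a1 led with 408 ± 32.0 FPKM (SD, n = 6), followed by Slc27a5 at 270, Cyp27a1 at 235, Baat at 135, Cyp8b1 at 134, Nr1h4 at 85.7, Abcb11 at 76.1, Cyp7b1 at 37.1, Cyp7a1 at 35.5 and Nr0b2 at 25.2. Neighbours whose ranges did not overlap were Slc10a1 and Slc27a5, Cyp27a1 and Baat, and Abcb11 and Cyp7b1, and all other neighbours overlapped. The start enzyme of the classical route was thus among the lowest of the 10 transcripts, and the uptake carrier the highest.

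The order of the first 5 was the same in Exercise livers, but the receptors changed place. Slc10a1 was at 311 ± 17.8, Slc27a5 at 286 and Cyp27a1 at 272 FPKM, and these 3 then overlapped. Nr1h4, at 48.2 ± 3.56 FPKM, lay below Abcb11 (65.8 ± 7.16) in 6 of 6 Exercise livers, whereas it had been above Abcb11 in 4 of 6 Sedentary livers. Nr0b2 at 33.7 ± 5.0 FPKM lay above Cyp7b1 (24.8 ± 4.54) in 6 of 6 Exercise livers, and Cyp7a1 was last at 20.4 ± 7.19 (SD, n = 6 each).

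**Figure D3:**
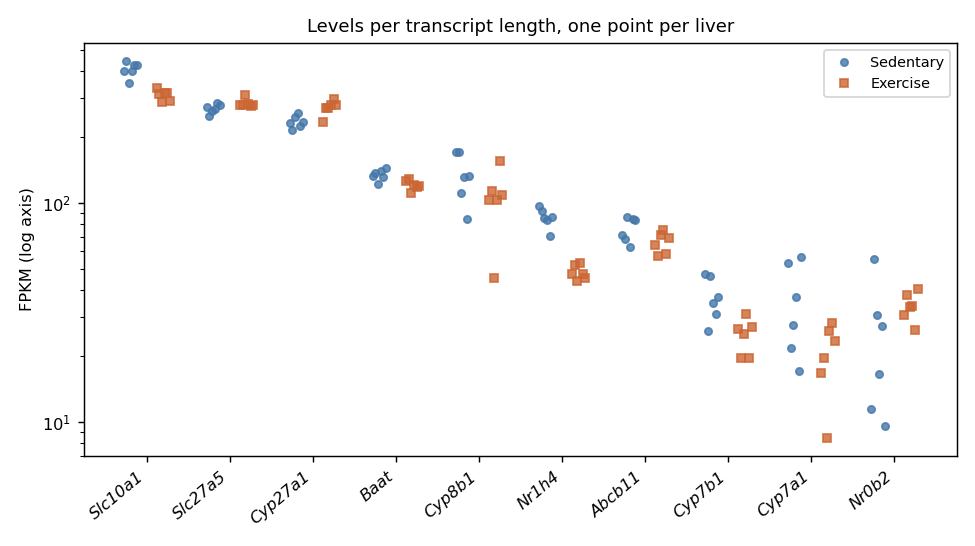
The y axis is FPKM on a log axis and the x axis the 10 genes in the order of their Sedentary mean, with circles for Sedentary and squares for Exercise livers, 1 point per liver. Slc10a1 is highest in both groups (408 and 311 FPKM on average), and Nr1h4 drops from above Abcb11 on average to below it.

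Ratios of FPKM within a liver describe the balance between steps and were given no test. The ratio of Cyp8b1 to Cyp7a1 was 4.33 ± 1.93 (2.35 to 7.87) in Sedentary and 5.24 ± 0.799 (3.98 to 6.18) in Exercise livers. That of Cyp7b1 to Cyp7a1 was 1.2 ± 0.459 (0.659 to 1.81) and 1.43 ± 0.81 (0.691 to 2.98). The export to uptake ratio, Abcb11 to Slc10a1, was 0.188 ± 0.0328 (0.154 to 0.244) and 0.213 ± 0.03 (0.181 to 0.248), with SD and n = 6 throughout. In each of the 3 ratios the ranges of the groups overlapped.

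Nr0b2 was also set against the genes that SHP and FXR are known to act on, liver by liver. Ordered by rising Nr0b2 in Sedentary livers (11.2, 13.4, 19.8, 34.7, 37.4 and 62.9 CPM), Cyp7a1 was at 222, 208, 148, 72.5, 112 and 82.2 CPM. The 3 livers with the least Nr0b2 were the 3 with the most Cyp7a1. Within Sedentary livers Pearson's r on log2(CPM + 0.5) was -0.92 (two-sided exact permutation p = 0.0208) and Spearman's rho -0.83 (exact permutation p = 0.0583). Over the 6 relations computed, Benjamini-Hochberg adjustment of these permutation p-values gave 0.125 and 0.35, so neither passed the correction. Without the 2 livers farthest from the median of Nr0b2, r was -0.89 over 4 livers (two-sided exact permutation p = 0.167).

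In Exercise livers, ordered by rising Nr0b2 (32.8, 39.6, 43.1, 45.0, 46.3 and 51.5 CPM), Cyp7a1 was at 118, 71.5, 111, 38.2, 79.9 and 99.6 CPM. No order is seen there, over a much narrower range of Nr0b2, and r was -0.28 (exact permutation p = 0.564, adjusted 0.846) with rho -0.31 (exact permutation p = 0.564, adjusted 1.0). Left without its 2 farthest livers, r was -0.21. A difference in r between the groups was not tested.

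For Nr0b2 and Cyp8b1, r was -0.18 in Sedentary (exact permutation p = 0.718, adjusted 0.862) and -0.44 in Exercise livers (exact permutation p = 0.367, adjusted 0.846), with rho -0.14 and -0.03 (exact permutation p = 0.803 and 1.0, both adjusted 1.0). Without the 2 farthest livers these were -0.9 and -0.31. For Nr0b2 and Abcb11, r was -0.02 in Sedentary (exact permutation p = 0.968, adjusted 0.968) and 0.35 in Exercise livers (exact permutation p = 0.517, adjusted 0.846), with rho 0.03 and 0.14 (exact permutation p = 1.0 and 0.803, both adjusted 1.0). The sign of r with Abcb11 turned in both groups without the 2 farthest livers, to 0.81 and -0.25. That of r with Cyp8b1 stayed negative in both. No relation of Nr0b2 with these 2 partners passed the correction.

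**Figure D4:**
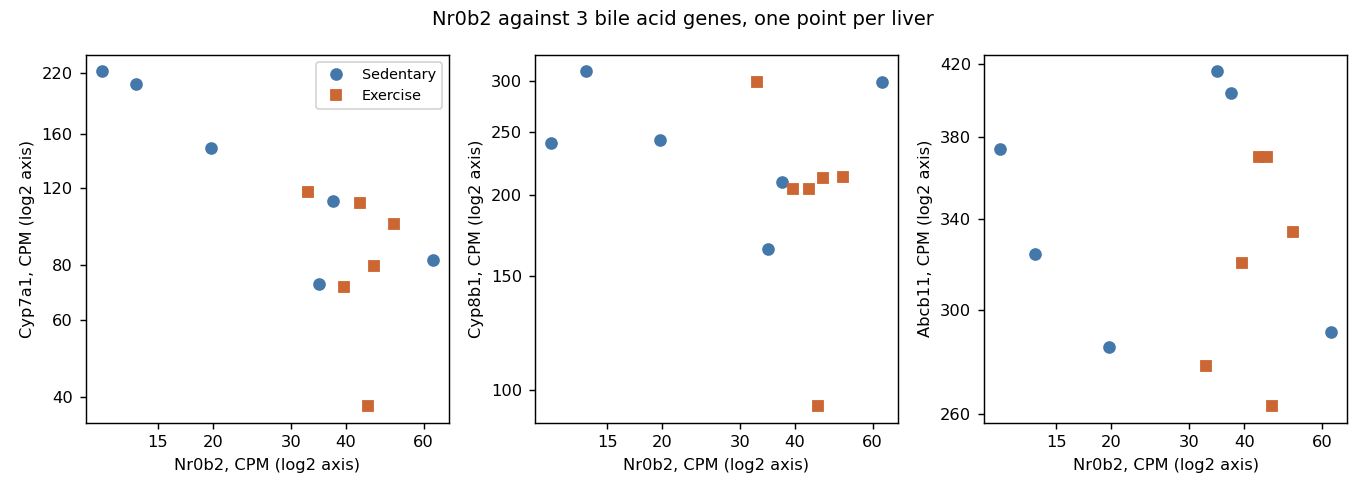
The x axis of each panel is the Nr0b2 level and the y axis that of Cyp7a1, Cyp8b1 or Abcb11, in CPM on log2 axes, with circles for 6 Sedentary and squares for 6 Exercise livers. Sedentary livers run from high Cyp7a1 and low Nr0b2 (222 and 11.2 CPM) to low Cyp7a1 and high Nr0b2 (82.2 and 62.9 CPM), and Exercise livers sit at the high Nr0b2 end.

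By likeness of pattern, with the group means removed and over 12 livers and 11536 genes, the genes nearest to Cyp7a1 were Ift81 (r = 0.899), Fam174c (0.87), Mettl4 (0.867), Pde6d (0.845) and Entpd2 (0.84). Those nearest to Cyp8b1 were Timm44 (0.89), Zfp422 (0.889), Trmt1l (0.873), Dtymk (0.866) and Tatdn3 (0.866). Those nearest to Nr0b2 were Mycn (0.875), Mblac2 (0.865), Dph3 (0.855), Fam72a (0.85) and Hjv (0.849). No other gene of the bile acid pathway was among these 15. The values are a description of 12 livers, with no p. The genes were picked as the highest of 11536, so their r is not evidence of a link.

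Of 13 other enzymes of bile acid synthesis, 12 were tested (Ch25h had too few counts), and 1 rose, 4 fell and 7 did not pass, a share of 41.7% changed beside 42.4% of all genes tested, with a median log2 fold change of -0.11. That share is near the background. The one that rose was Cyp39a1 (chromosome 17, 43667425 to 43751431, plus strand), an oxysterol hydroxylase of a minor route. It was at 36.1 CPM at the lowest, 54.0 at the median and 79.0 at the highest in Sedentary livers, and at 95.6, 103 and 134 CPM in Exercise livers, without overlap. Its log2 fold change was 0.99 (SE 0.17, edgeR adjusted p = 0.000728).

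The 4 that fell were Abcd3, Amacr, Hsd3b7 and Acot8. Abcd3, which carries bile acid intermediates into the peroxisome, fell by 0.62 on the log2 scale (edgeR adjusted p = 4.06e-06), from 473 ± 30.5 to 309 ± 34.1 CPM (SD, n = 6 each), without overlap. Amacr, the racemase of the side chain, fell by 0.35 (edgeR adjusted p = 0.000264), from 102 ± 10.8 to 79.8 ± 1.39 CPM (SD, n = 6 each), also without overlap. Hsd3b7, which follows Cyp7a1 and Cyp7b1 in the sterol ring steps, and the peroxisomal thioesterase Acot8 fell by 0.32 and 0.26 (edgeR adjusted p = 0.00651 and 0.0234). The peroxisomal enzymes Acox2, Hsd17b4 and Scp2 and the ligase Slc27a2 did not pass, with values of 0.14, -0.069, 0.0014 and 0.016. Akr1c14, next in order of p, had -0.15 (edgeR adjusted p = 0.0585). The protein-coding model Gm49388 overlaps Hsd3b7 on its own strand and Snx21 overlaps Acot8 on the other, so part of their counts may be shared.

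Of 14 other bile acid and canalicular transporters, 13 were tested and Slc51a was not analysed here. By edgeR 0 rose (1 at an unadjusted p under 0.05) and 2 fell, 15.4% of those tested beside 42.4% of all genes tested, with a median log2 fold change of 0.086. The count was 1 in 9 of the 12 fits that left out 1 liver, 2 without Exercise replicate 1, and 3 without Sedentary replicate 4 or 5. Atp8b1, the canalicular phospholipid flippase, fell by 0.39 (edgeR adjusted p = 0.0208), and the sinusoidal carrier Slco2b1 fell by 0.13 (edgeR adjusted p = 0.0495). The sinusoidal carrier Slco1a4 was at 65.5 ± 18.3 in Sedentary and 90.9 ± 12.4 CPM in Exercise livers (SD, n = 6 each), with a log2 fold change of 0.47 (edgeR adjusted p = 0.0504). It passed the threshold with DESeq2 (adjusted p = 0.00799) and limma-voom (adjusted p = 0.0391), which each called 3 transporters, 1 higher and 2 lower.

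Of 22 regulators of bile acid synthesis, 19 were tested and 14 of those changed (73.7%, 9 higher and 5 lower, beside 42.4% of all genes tested). In 10 of the 19 the groups did not overlap, where 22.3% of all genes tested did not, and the median log2 fold change was 0.067. The list holds partners and coactivators of the loop, the FGF receptor arm, and clock and fasting factors. It was compiled with earlier results of these data known, so its share is not independent evidence.

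Both factors that SHP is known to act on rose. Nr5a2 (LRH-1) rose from 51.7 ± 5.68 to 67.9 ± 4.03 CPM (SD, n = 6 each), a log2 fold change of 0.39 (edgeR adjusted p = 0.000207), without overlap. Hnf4a, the hepatocyte factor that drives Cyp7a1 and Cyp8b1, rose by 0.59 (edgeR adjusted p = 4.97e-06), from 531 ± 45.4 to 798 ± 67.9 CPM (SD, n = 6 each), without overlap. The antisense gene Hnf4aos overlaps Hnf4a, and without a strand setting the counts of both cannot be told apart. The coactivator Ppargc1a rose by 1.88, Klf15 by 1.17, Foxo1 by 1.05, the D-box repressor Nfil3 by 0.92, the FXR-induced repressor Mafg by 0.52, Nr1d1 (REV-ERBα) by 0.49 and Ppara by 0.42, with edgeR adjusted p of at most 0.00414.

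Klb, the coreceptor through which the gut hormone FGF15 acts on hepatocytes, fell from 31.4 ± 2.47 to 22.1 ± 3.35 CPM (SD, n = 6 each), a log2 fold change of -0.51 (edgeR adjusted p = 0.000132), without overlap. Its receptor Fgfr4 had -0.21 (edgeR adjusted p = 0.0592). The clock genes Bhlhe40 and Dbp fell by 0.64 and 0.62, the xenobiotic receptor Nr1i3 by 0.55 and the corepressor Prox1 by 0.37, with edgeR adjusted p of at most 0.00309. Rxra, the partner of FXR, had 0.067 (edgeR adjusted p = 0.488), and Nr1h3 and Nr1i2 did not pass either. Vdr and Gpbar1 had too few counts to test, and Fgf15 was not analysed here.

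Of 8 other FXR target genes of liver, 7 were tested and 1 changed (14.3%, beside 42.4% of all genes tested), with a median log2 fold change of 0.015. The one that rose was Mafg, which Sirt7 overlaps on the same strand, from 94.5 ± 7.24 to 136 ± 7.56 CPM (SD, n = 6 each). Abcb4, the phospholipid exporter of the canaliculus, had 0.15 (edgeR adjusted p = 0.196), and Slc51b, a subunit of the basolateral exporter, had -0.74 (SE 0.40, edgeR adjusted p = 0.158) at only 1.95 and 1.18 CPM on average. Pltp, Sdc1, Apoc2 and Fetub had values from -0.13 to 0.094. The receptor's own transcript was lower in each Exercise liver, and Abcb11, Nr0b2 and 6 of these 7 targets did not pass the threshold.

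**Figure D5:**
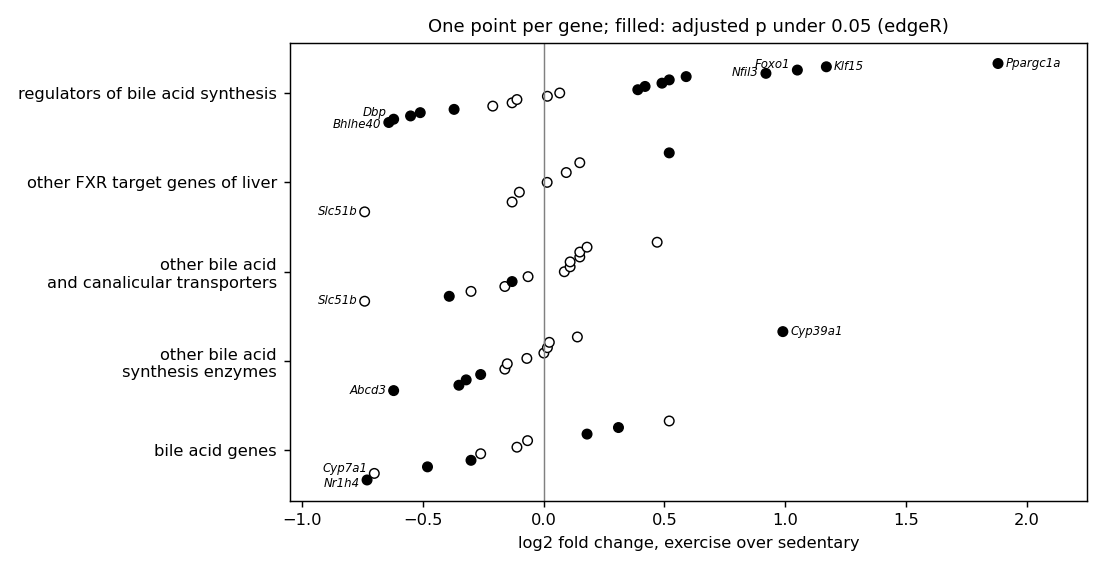
Each point is 1 tested gene at its log2 fold change of exercise over sedentary, in rows for the 10 bile acid genes and the 4 other lists, filled where edgeR's adjusted p is under 0.05. Regulators spread from -0.64 (Bhlhe40) to 1.88 (Ppargc1a) with 14 of 19 filled, and FXR targets from -0.74 (Slc51b, open) to 0.52 (Mafg), the only one of 7 filled.

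Markers of the other cells of liver were at low levels and none was at 0. Cholangiocyte markers summed to 65.6 to 77.6 CPM in Sedentary and 80.3 to 87.9 CPM in Exercise livers, with 1 of 7 tested called higher (Slc10a2). Kupffer cell markers summed to 53.6 to 93.0 and 64.6 to 101 CPM, with 0 of 6 past the threshold by edgeR, DESeq2 or limma-voom, and 0 at an unadjusted p under 0.05 by any of them. Endothelial markers summed to 105 to 141 and 118 to 174 CPM, with 2 of 5 higher and 1 lower, and stellate cell markers to 138 to 184 and 129 to 190 CPM, with 2 of 5 lower. The part of these in the changes of the bile acid genes was not tested.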

How the data were processed

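The study measured RNA of liver from 6 sedentary and 6 exercised mice by RNA-Seq with a BGI mRNA library kit. The deposited table holds 17432 genes. The authors made an estimated count for each gene and library with RSEM and did not scale it between libraries. Of these values 31.3% are not whole, as RSEM divides reads that match several transcripts or genes. The deposited FPKM values were computed by the authors from the same reads, for transcript length and depth. Bowtie2 2.3.4.3, RSEM 1.3.1 and mm10 are named in the submitters' processing notes, and annotation and strand setting are not given in the sources used here.

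Groups came from the sample labels. Counts were rounded and fitted by robust quasi-likelihood (edgeR 4.0.16, R 4.3.3) with TMM scaling and group as the only term. The filterByExpr filter, minimum count 10, left 12344 genes, over which p-values were adjusted by Benjamini-Hochberg at a threshold of 0.05. The biological coefficient of variation was 11.3%. Library totals were 18745379 to 19324461 counts, and counting error was at most 4.1% for the 10 genes. CPM is TMM-scaled. Single genes were also compared by an exact permutation test on log2(CPM + 0.5). No pair of libraries among 66 was identical (chi-square per gene 7.94 to 45.2 within groups), and scripts were tested on simulated data. Alternatives were other scalings and filters, DESeq2 1.42.0, limma-voom and limma 3.58.1 on log2(FPKM + 0.1) and log2(FPKM + 1), a replicate block, a threshold of 0.01 and leaving out each liver. Leaving out Exercise replicates 1 and 3 together was chosen after seeing the data. Gene positions are from GENCODE M21 and promoters from RefSeq.

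The 10 genes and the lists were chosen with earlier results of these data known. Named genes are the 10, from each of the 4 other lists up to 6 with the smallest adjusted p and, where 5 or fewer changed, all of those, regulators by their log2 fold change, the 5 genes nearest in pattern to Cyp7a1, Cyp8b1 and Nr0b2, and markers beside a result. List genes named outside that rule were chosen after their values were seen. Some list genes are not reported here. Python 3.11.15, scipy 1.17.1 and pandas 2.3.3 were used for the rest.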

Additional observations from a re-analysis of the deposited data

Results flagged for a closer look

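In 64 groups of 6 livers, from 32 genes named above, the lowest or highest liver was checked for a gap to the nearest of over 0.625 of the range, and 5 were found where chance gives about 3.2. Slc27a5 reached 775 CPM in Exercise replicate 3, where the next Exercise liver had 671 (gap 0.742 of the range). Without that liver its call was lost (log2 fold change 0.14, edgeR adjusted p = 0.0864). Exercise replicate 3 was also far above the others for Ppara, at 256 CPM with the next at 186 (0.696), and for Ppargc1a, at 42.1 CPM with the next at 32.5 (0.698). Dbp was low in Exercise replicate 6, at 4.03 CPM with the next at 4.81 (0.755). Atp8b1 was high in Sedentary replicate 5, at 26.1 CPM with the next at 18.5 (0.703).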

How the results depend on the processing

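Nr1h4, Slc10a1 and Cyp27a1 kept their direction and their call under all alternatives run. Of the 192 values from settings that kept all livers, 171 kept direction and side of the threshold or, for counts, a total within 1.5 times, 10 counts moved, 8 calls were lost and 3 were gained; of the 192 from fits that left out 1 liver, 161 kept these, 14 counts moved and 17 calls were lost.

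With no filter beyond 1 count, Cyp7b1 was -0.483 (adjusted p = 0.0722) and Slc27a5 0.177 (0.0518), so that 3 of the 10 genes and 1 transporter changed, with more genes tested. At an adjusted p of 0.01, Cyp7b1 (-0.482) and Slc27a5 (0.178) were lost, leaving 3 of the 10 genes and 0 transporters, and 3584 of all genes. Limma-voom gave Cyp7b1 -0.474 (0.0508). With library size alone, limma on log2(FPKM + 0.1) and limma on log2(FPKM + 1), Slc27a5 was 0.0826, 0.0831 and 0.0828 (adjusted p = 0.24, 0.201 and 0.201) and Baat passed at -0.161, -0.161 and -0.16 (0.0304, 0.0263 and 0.0262). Each of these 3 gave 1 higher and 4 lower among the 10 genes, 8 other synthesis enzymes (1 higher, 7 lower) and 2 FXR targets (1 higher, 1 lower). They moved the median of all genes to -0.0985, -0.0932 and -0.0661, and 32.1%, 31.4% and 31.6% of all calls were then higher, against 49.8%.

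Leaving out 1 liver, Cyp7b1 ranged from -0.577 to -0.402 and Slc27a5 from 0.14 to 0.22, 3 to 4 of the 10 genes changed, and 1 to 3 transporters. The Slc27a5 call was lost without Sedentary replicate 1, 2, 3, 4 or 6 or Exercise replicate 3 or 4. Without Exercise replicates 1 and 3, Cyp7b1 was -0.531 (0.0914), Slc27a5 0.132 (0.149), and 3 of the 10 genes and 1 transporter changed. Causes were not tested. Without the 2 livers farthest from the median of Nr0b2, r with Cyp7a1 was -0.89 in Sedentary livers and r with Abcb11 turned to 0.81 in Sedentary and -0.25 in Exercise livers.

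Same-numbered livers did not all deviate together (r from -0.099 to 0.16, own number best in 2 of 6). With so few livers this check cannot exclude pairing, and the main fit took no pairs. Under a replicate block Cyp7b1 was -0.474 (SE 0.0877, edgeR adjusted p = 0.00107), where the main fit gave an SE of 0.17 and an edgeR adjusted p of 0.0439. With the replicate block, 5 of the 10 genes changed, 2 higher and 3 lower, and 4956 of all genes against 5229. With it, and with RLE size factors, the 2 transporters were 1 higher and 1 lower. Depth limits only genes such as Slc51b, near 1 CPM.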

Other observations

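Slc10a2, the apical sodium-dependent bile acid transporter, known from the ileum and from cholangiocytes, was on the list of cholangiocyte markers and not among the transporters (chromosome 8, 5083219 to 5105351, minus strand). It was at 11.5 CPM at the lowest, 14.5 at the median and 18.5 at the highest in Sedentary livers, and at 26.0, 30.5 and 40.5 CPM in Exercise livers. Each Exercise liver was above each Sedentary liver, with means of 14.9 ± 2.41 and 31.6 ± 4.80 CPM (SD, n = 6 each) and a log2 fold change of 1.09 (SE 0.11, edgeR adjusted p = 1.98e-06), a 2.13-fold rise. Its relative Slc10a1, the carrier of the sinusoidal membrane, fell in the same livers.

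The defining cholangiocyte markers did not pass the threshold with it. Krt19 was at 2.18 ± 0.261 and 1.83 ± 0.52 CPM (SD, n = 6 each; edgeR adjusted p = 0.264), and Krt7 and Epcam had log2 fold changes of 0.10 and -0.058 (edgeR adjusted p = 0.771 and 0.849) at about 1 CPM. The part of duct cells in the Slc10a2 level was not tested.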
